A study of Mus musculus with 2 samples.

Results

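The 10 genes of the circadian clock named Clock, Per1, Per2, Per3, Cry1, Cry2, Nr1d1, Nr1d2, Dbp and Tef were described here for H3R17me2a, asymmetric dimethylation of histone H3, in the mouse heart. They were taken as a fixed list of names, 10 of 21887 protein-coding genes, and all peaks over each gene span and 5000 bp on either side were counted. The study measured the mark by ChIP-seq, which sequences DNA pulled down with an antibody, and a peak is a stretch where that DNA exceeds a background. Its 2 samples fall in 1 group, wild type heart at P21 (21 days after birth), with no treatment named and no control group or second genotype analysed here. The titles name carm1, the methyltransferase that deposits the mark, although the genotype label is wild type. One label names primary cardiac fibroblasts while tissue and protocol name heart, homogenised from frozen tissue, and the series design calls the hearts neonatal. The labels used here give no time of day, strain, sex or number of animals, so the circadian phase of the tissue is unknown.

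The label of heart tissue was set beside marker genes. These were listed with earlier results of these data known, so they are no independent check of the label. A peak of both samples lay at an end of 7 of 8 cardiomyocyte markers (all but Ryr2), 0 of 7 fibroblast markers, 0 of 5 endothelial, 1 of 4 immune (Cd68) and 0 of 4 neuronal markers. The share over all protein-coding genes was 38.6%. Away from their ends, Ryr2 had 166 peaks found in both samples, Pecam1 2 and Syp 1. Col1a1 had a peak at an end in sample 2 alone (fold 3.53). The deposited peak lists, called list 1 and list 2 after the sample numbers, held 21496 and 38012 peaks on the autosomes, X and Y. List 1 reached down to a −log10 p of 5.0006 and the more permissive list 2 to 2.01. Total depth is unknown, but the fold and p of a peak together fix the number of ChIP reads at its summit, whose median was 26 in list 1 and 15 in list 2. Summits fell on the same base in 42.1% of 20978 overlapping pairs of peaks. In the 8821 such pairs with recovered reads, the read difference had an SD of 0.291 counting errors, where independent counts would give 1.0. The read numbers of the 2 samples at these peaks were thus closer than sampling noise allows for separate libraries, and they were counted as 1 sample. No mean, SD or test over samples is given, and the values of both lists show only how peak calling moved a result.

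The clock is a loop of transcription factors that runs in nearly every cell. Clock pairs with Bmal1 (gene Arntl) on E-box sequences and switches on the Per, Cry, Nr1d, Dbp and Tef genes. Per and Cry proteins block that pair, and the nuclear receptors Nr1d1 and Nr1d2, known as Rev-erb alpha and beta, silence Arntl and other genes through AGGTCA-type sites. Dbp and Tef are activators that bind D-box sequences and pass the rhythm on to output genes. In the heart the cardiomyocyte clock is known for timing metabolism, growth and electrical properties. Clock, Dbp and Tef are treated below as the activator arm and the other 7 genes as the repressor arm.

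Promoter sequences of 5 repressors and 1 activator are shown because their E-box or D-box letters lay inside H3R17me2a peaks, those of Per3 in list 2 alone. Each window is the RefSeq promoter of build GRCm38.p6 (the assembly behind mm10), from 250 bases before to 50 after an annotated start. Capitals mark CACGTG and CACGTT (E-boxes), TTATGTAA and TTACGTAA (D-boxes) and AGGTCA, searched on both strands, so that AACGTG, TTACATAA and TGACCT are reverse complements. The windows lie at chr11:69098699-69098998 (plus strand), chr4:151044616-151044915 (minus), chr10:85185005-85185304 (minus), chr2:92434020-92434319 (minus), chr11:98775328-98775627 (minus), chr15:81802423-81802722 (plus) and chr15:81811164-81811463 (plus).
Per1 upstream start: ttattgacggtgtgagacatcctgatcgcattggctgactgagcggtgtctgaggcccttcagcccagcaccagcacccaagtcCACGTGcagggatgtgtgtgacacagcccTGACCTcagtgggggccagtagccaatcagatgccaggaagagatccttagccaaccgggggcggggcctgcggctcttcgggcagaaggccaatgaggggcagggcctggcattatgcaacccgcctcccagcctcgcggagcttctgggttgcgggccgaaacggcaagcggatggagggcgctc
Per3 start: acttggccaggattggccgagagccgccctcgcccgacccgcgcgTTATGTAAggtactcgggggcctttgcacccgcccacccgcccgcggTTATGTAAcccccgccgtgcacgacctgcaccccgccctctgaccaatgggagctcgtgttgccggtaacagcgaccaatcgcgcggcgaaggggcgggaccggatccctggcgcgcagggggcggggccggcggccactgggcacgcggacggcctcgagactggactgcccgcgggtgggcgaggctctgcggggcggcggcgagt
Cry1 start: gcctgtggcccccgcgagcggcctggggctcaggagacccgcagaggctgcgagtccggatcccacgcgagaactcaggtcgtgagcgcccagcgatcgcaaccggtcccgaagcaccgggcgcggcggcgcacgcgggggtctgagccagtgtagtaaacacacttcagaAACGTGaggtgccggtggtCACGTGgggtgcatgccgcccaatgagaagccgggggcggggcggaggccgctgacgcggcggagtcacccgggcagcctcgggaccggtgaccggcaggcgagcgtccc
Cry2 start: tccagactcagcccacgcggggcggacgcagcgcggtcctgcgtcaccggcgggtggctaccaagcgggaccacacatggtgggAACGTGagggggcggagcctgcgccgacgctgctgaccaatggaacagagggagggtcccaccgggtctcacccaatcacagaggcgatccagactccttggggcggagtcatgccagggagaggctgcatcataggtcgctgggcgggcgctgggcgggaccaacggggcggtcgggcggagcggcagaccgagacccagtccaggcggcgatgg
Nr1d1 start: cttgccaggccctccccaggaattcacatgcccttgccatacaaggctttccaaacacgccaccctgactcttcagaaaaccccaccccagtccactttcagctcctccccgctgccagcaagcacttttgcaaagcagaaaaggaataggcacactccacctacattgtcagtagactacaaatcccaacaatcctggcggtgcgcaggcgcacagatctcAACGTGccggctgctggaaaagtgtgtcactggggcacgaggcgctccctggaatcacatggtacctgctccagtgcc
Tef upstream start: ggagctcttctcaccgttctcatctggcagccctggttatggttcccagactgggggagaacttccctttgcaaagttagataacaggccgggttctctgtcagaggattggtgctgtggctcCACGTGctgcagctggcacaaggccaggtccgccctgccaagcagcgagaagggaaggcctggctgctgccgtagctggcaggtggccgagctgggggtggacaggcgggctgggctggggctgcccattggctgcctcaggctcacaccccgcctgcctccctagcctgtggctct
Tef downstream start: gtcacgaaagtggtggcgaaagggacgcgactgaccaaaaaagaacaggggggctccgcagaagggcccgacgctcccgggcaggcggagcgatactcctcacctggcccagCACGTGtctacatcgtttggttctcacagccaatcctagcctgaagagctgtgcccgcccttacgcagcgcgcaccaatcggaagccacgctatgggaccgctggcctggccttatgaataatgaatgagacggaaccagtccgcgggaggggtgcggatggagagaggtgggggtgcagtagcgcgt

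The printed windows were chosen for letters inside peaks, so the nearness of letters and summits is partly fixed by that choice. Distances at other promoters are not given. Distances from a summit are to the middle of the letters. RefSeq held 13 promoter entries for 9 of the 10 genes, with none for Per2, and a peak of both lists overlapped the window of 11 entries, beside 35.3% of the 21263 entries of all protein-coding genes. At the upstream Tef start the CACGTG, 127 bases before the start, was 17 bp from the summit of both lists. In Cry1 the CACGTG was 60 bases before the start, 11 bp from the list 1 summit and 12 bp from that of list 2, with an AACGTG 79 bases before the start. In Cry2 the summit of both lists lay within an AACGTG, 2 bp from its middle, and in Nr1d1 an AACGTG was 42 and 44 bp from the summits. The Per1 CACGTG was 99 bp from both summits and the second Tef CACGTG 311 bp. Both TTATGTAA of Per3 lay in the list 2 peak, 10 and 57 bp from its summit. Of 12 matches in the 10 genes, 8 lay in peaks of both lists, 2 in a list 2 peak alone and 2 in none (the AGGTCA-type matches of Clock and Nr1d2). The window of Dbp had none of the letters searched, nor had 2 of the 3 Clock windows or the second Per1 window. Over all 32851 promoters, not only those of protein-coding genes, CACGTG occurred in 7.15%, CACGTT in 4.69%, a D-box in 1.06% and AGGTCA in 16.3%. GC content was not matched. Among the 13 entries, of which overlapping Clock windows share bases, the counts were 4, 3, 1 and 3. A match describes the letters only and shows no binding.

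Nearly all clock genes carried H3R17me2a at a gene end. A gene end is here the 1000 bp on both sides of either end of the gene span, and 9 of 10 genes had a peak of both lists at the same end, beside 38.6% of all protein-coding genes (exact 95% interval 38.0 to 39.3%, counting error only) and 44.5% of the genes as long as the members (5104 to 95736 bp). In list 1 by itself 9 of 10 genes had one, beside 39.2% of all genes, and in list 2 10 of 10, beside 46.2%. Per3, present in list 2 alone, was the exception. A shared peak, meaning a list 1 peak that overlaps a list 2 peak by at least 1 bp, lay over the span or its 5000 bp flanks in the same 9 genes, beside 48.7% of all genes and 54.9% of those in the length range. There were 24 shared peaks in all, of which 13 lay at gene ends, 7 inside genes and 4 in the flanks. With only the upper 50% of each list by fold, 2 of the 10 genes (Dbp and Nr1d1) kept a gene-end peak, beside 12.2% of all genes.

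**Figure D1:**
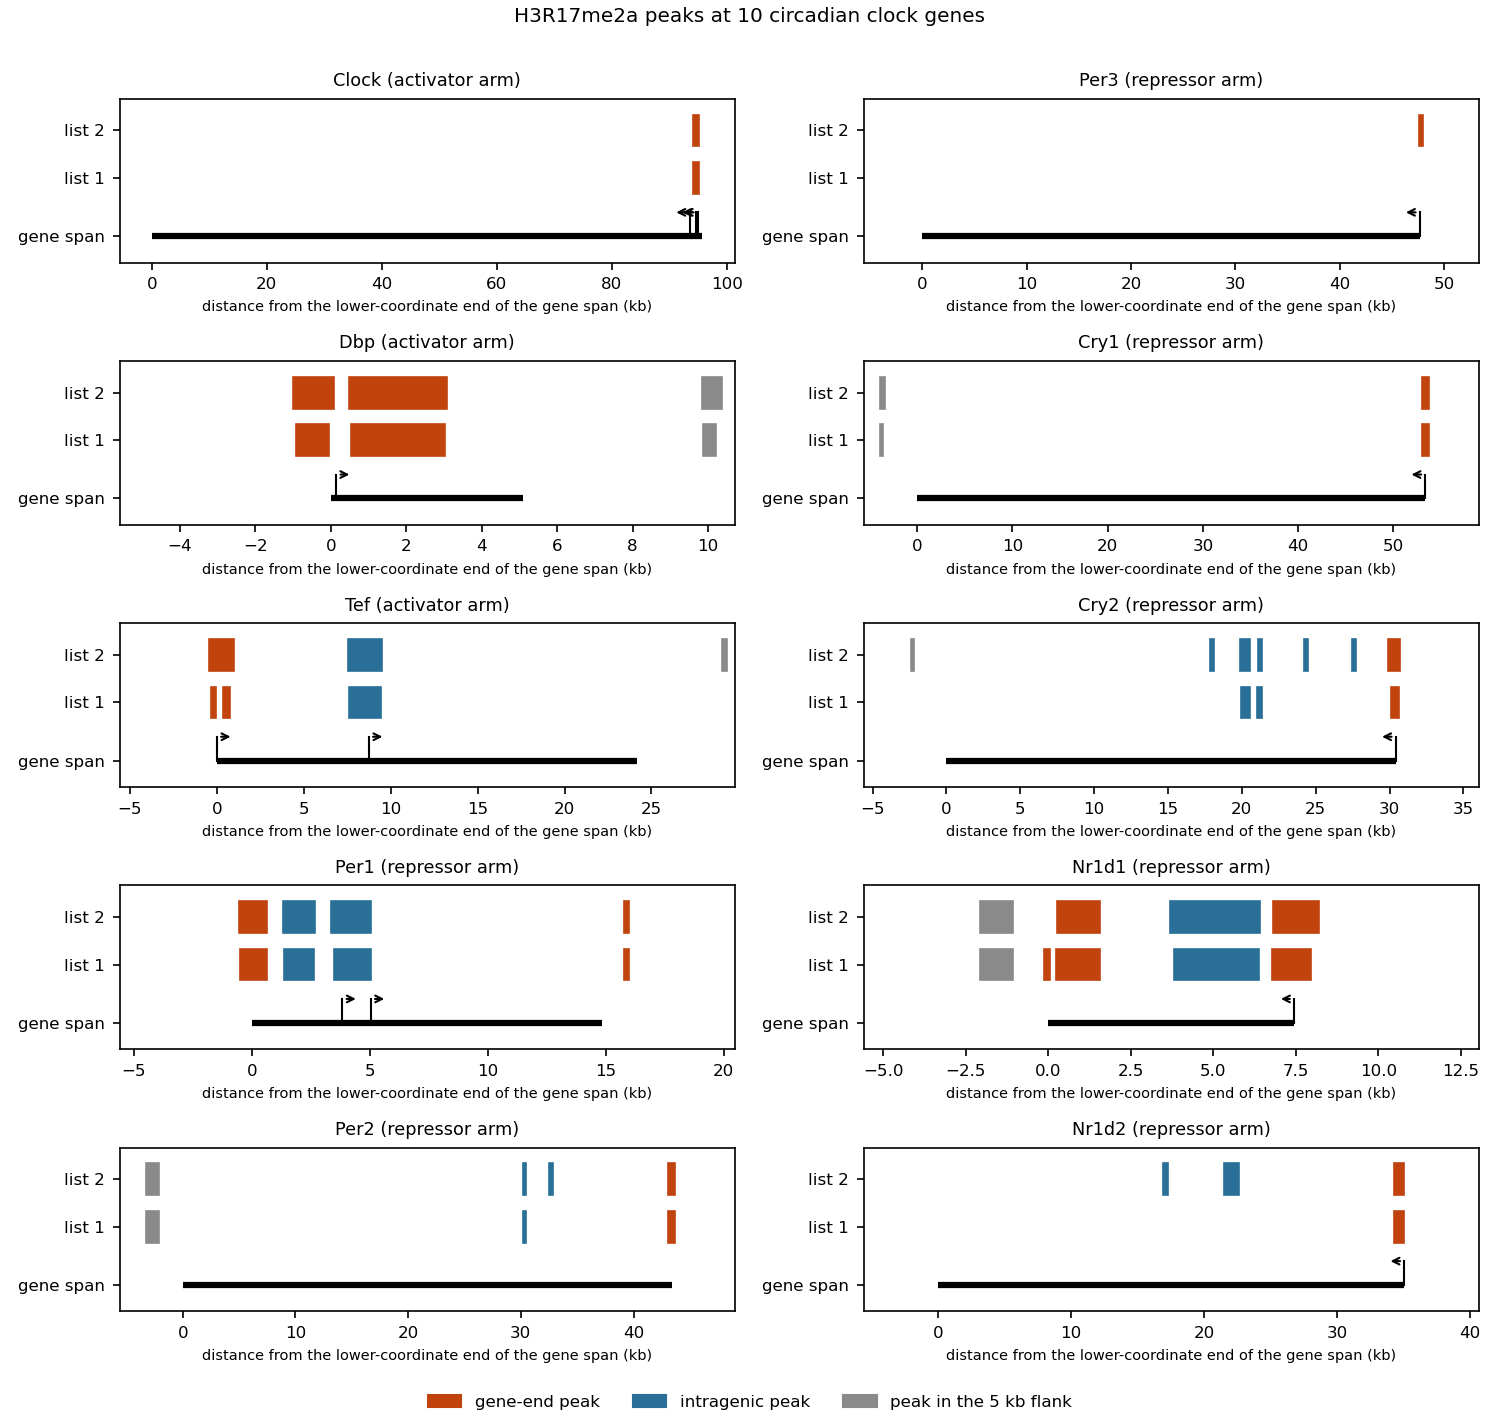
H3R17me2a peaks of both lists over 10 clock genes; the x axis is the distance in kb from the lower-coordinate end of each gene span (black bar), arrows are annotated starts with their direction (none for Per2), and boxes are peaks coloured by position. Peaks lie within 1000 bp of an annotated start in both lists at 8 genes and contain a start in both at 6, Per3 has a box in list 2 alone, and boxes fill much of Nr1d1 and Dbp.

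Several clock genes had peaks inside the gene or more than 1 shared peak. A shared intragenic peak, which overlaps the span but neither end window, was present in 5 of 10 genes (Per1, Per2, Cry2, Nr1d1 and Tef), beside 15.5% of all genes and 15.9% in the length range. By arm these were 6 peaks in 4 of 7 repressors and 1 peak in 1 of 3 activators. The Tef peak and 1 of the Per1 peaks contain an annotated start inside the span. At least 3 shared peaks were present in 6 of 10 genes, beside 8.81% and 8.23%. Per2 and Dbp reached 3 only with a flanking peak, overlapping Hes6 and Sphk2, and had 2 with a 2000 bp flank. Per2 and Cry2 had 2 at a common −log10 p of 5. In Tef, 2 of the 3 were list 1 peaks overlapping 1 list 2 peak, and a reciprocal overlap of 50% left 1. The share of all genes with at least 3 shared peaks under these settings is not given. Per1 and Nr1d1 had a peak of both lists at both ends, beside 3.18% of all genes and 2.94% in the length range. The peak at the far end from the starts overlapped the transfer RNA gene n-TScga3 in Per1 and Thra in Nr1d1. These far-end peaks cannot be assigned to 1 gene. A peak of both lists lay within 1000 bp of an annotated start in 8 of the 9 genes with a promoter entry, beside 40.6% of 17492 genes, and in 6 of them a start lay inside a peak of both lists. Peaks of the 10 genes had a median width of 771 bp in list 1 (25 peaks, 196 to 2560 bp) and 724 bp in list 2 (32 peaks, 205 to 2727 bp), where all peaks had medians of 460 and 459 bp. At least 1000 bp were reached by 11 and 14 of them, beside 12.9% and 14.4% of all peaks.

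Nr1d1, the gene of Rev-erb alpha (chromosome 11, 98767932 to 98775377), was the most covered of the 10. Peaks covered 61.9% of its 7446 bp span in list 1 and 62.7% in list 2, a share at or above that of 99.7% and 99.5% of protein-coding genes, and the median gene had 0.0% and 0.305%. At the annotated start the peaks spanned 98774716 to 98775905 and 98774746 to 98776119, with folds of 5.56 and 6.21 and summits 16 and 18 bp inside the gene. The widest peak lay in the gene body, 2560 bp in list 1 (98771751 to 98774310) and 2727 bp in list 2, at the 99.2 and 99.3 percentiles of width, with the same summit base 1284 bp from the start. Its folds were 3.11 and 3.65 from 310 and 317 ChIP reads. At the far end of the gene, where the span overlaps that of the thyroid hormone receptor gene Thra, a peak had folds of 6.99 and 3.94. That peak, a 196 bp peak of list 1 alone and a flanking peak of folds 6.73 and 7.72 all overlapped Thra, and the start peak overlapped the long non-coding RNA gene Gm31862. These cannot be assigned to 1 gene.

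Its paralogue Nr1d2 (chromosome 14, 18204056 to 18239106), coding for Rev-erb beta, had a single shared peak that held the most reads of the 10 genes. The start peak was 771 bp wide in list 1 and 701 bp in list 2, and its summit held 831 and 821 ChIP reads, the 99.9 percentile of each list. The list 2 number is the 1 read count here that missed the matching tolerance. Its −log10 p values were 163 and 72.8. The background under it was 271 reads in list 1 and 325 in list 2 on the ChIP read scale, also the 99.9 percentile. The fold, 3.06 and 2.52, lay at the 14.4 and 10.7 percentiles. The summit lay 473 and 472 bp inside the gene. Peaks covered 2.18% of the span in list 1 and 6.20% in list 2, which had 2 further intragenic peaks with a −log10 p of 4.01 and 2.96.

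Per1 (chromosome 11, 69095108 to 69109965), a repressor that also responds quickly to hormonal signals, carried 3 wide peaks upstream of and over its starts. RefSeq starts lie at 69098949 and 69100152, inside the span. The first peak, at the low end of the span (1169 and 1191 bp), had folds of 3.08 and 2.77 and a summit 3894 and 3896 bp upstream of the nearer start. The second (69096480 to 69097749 and 69096448 to 69097777) was the strongest, with folds of 6.45 and 6.71 from 173 and 183 reads. The peak after it contained both starts, 1568 and 1694 bp wide, with the same summit base 64 bp before the upstream start in both lists. Its reads were nearly equal, 158 and 161, but its fold was 2.04 in list 1 and 4.02 in list 2. These peaks covered 23.5% and 24.8% of the span, the 98.2 and 97.3 percentiles of protein-coding genes. The fourth peak, beyond the far end, was 219 and 239 bp wide with folds of 2.47 and 3.29 and overlapped the transfer RNA gene n-TScga3.

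The other Per genes differed from Per1 in having at most 1 shared gene-end peak. At Per2 (chromosome 1, 91415977 to 91459351), the partner of Per1 in the repressor complex, peaks of 597 and 606 bp lay at the high end of the span with the same summit base, 280 and 292 reads and folds of 2.90 and 2.79. A weak intragenic peak of 12 and 13 reads (folds 4.33 and 3.01) overlapped the non-coding gene Gm35591, as did a second one of list 2 alone (fold 3.28). A flanking peak (folds 3.27 and 5.53) overlapped the neighbouring gene Hes6. Per3 (chromosome 4, 150997018 to 151044707), the remaining paralogue, had no list 1 peak over its span or flanks. List 2 held 1 peak at its start (151044589 to 151045008) with 244 reads, a fold of 3.04 and a −log10 p of 30.8, the 95.5 percentile of list 2 by p. This peak overlapped Gm38529, annotated as protein-coding. List 1 peak numbers have 15 gaps, and 0 of them reach any of the 10 genes.

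Cry1 and Cry2 code for the cryptochromes, which bind and inhibit Clock and Bmal1, and both were marked at the start. At Cry1 (chromosome 10, 85131700 to 85185054) the start peak was 739 and 747 bp wide, with 341 and 348 reads, folds of 2.57 and 2.77 and a summit 47 and 46 bp before the start. Its second peak (folds 2.42 and 5.85) lay in the flank at an end of Mterf2. Cry2 (chromosome 2, 92403646 to 92434085) had a start peak of 580 and 834 bp with 89 and 87 reads and folds of 2.25 and 3.65. Deeper in the gene, 10145 and 10146 bp from the start, a peak of 107 and 108 reads had higher folds than the start peak, 4.91 and 5.65. A shared peak of 20 and 18 reads lay near it, and both overlapped the non-coding gene D930015M05Rik. List 2 added 3 intragenic peaks and 1 flanking peak, all with a −log10 p under 5.

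In the activator arm, Clock (chromosome 5, 76209868 to 76305603), the DNA-binding partner of Bmal1 and itself a histone acetyltransferase, had 1 peak. It was 1047 bp wide in list 1 and 1046 bp in list 2, contained 2 of the 3 annotated starts and overlapped the non-coding gene Gm7467. Its folds were 2.63 and 2.56 from 70 and 73 reads. No other peak of either list lay over its 95736 bp span, of which 1.09% was covered in each list.

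Dbp (chromosome 7, 45705100 to 45710203), an activator whose expression swings widely over the day in many tissues, was covered over 48.8% and 52.9% of its span, the 99.4 and 99.3 percentiles of protein-coding genes. The start at 45705247 fell between peaks in both lists. The first ended at 45705043 in list 1 and 45705192 in list 2 and also overlapped the neighbour Car11, with 285 and 291 reads and folds of 2.10 and 3.02. The second began at 45705647 and 45705584, ran for 2489 and 2605 bp and had folds of 5.90 and 10.4 from 117 and 116 reads at the same summit base, 2512 bp inside the gene. Another peak, in the flank, overlapped Sphk2 (folds 2.89 and 6.23).

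Tef (chromosome 15, 81802673 to 81826863), a close relative of Dbp, was marked at both of its annotated starts, 81802673 and 81811414. At the first, list 1 had peaks of 330 and 406 bp that list 2 joined into 1 peak of 1460 bp. The summit base was the same, with 291 and 305 reads and folds of 2.84 and 5.75, and the peak overlapped the non-coding gene Gm17597. At the second start the peaks were 1887 and 1961 bp wide, with 265 and 278 reads and folds of 3.37 and 4.80. The second start lies inside the span, so this peak counted as intragenic. When at least 50% of each peak had to be covered by the other, the first start no longer counted as shared.

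**Figure D2:**
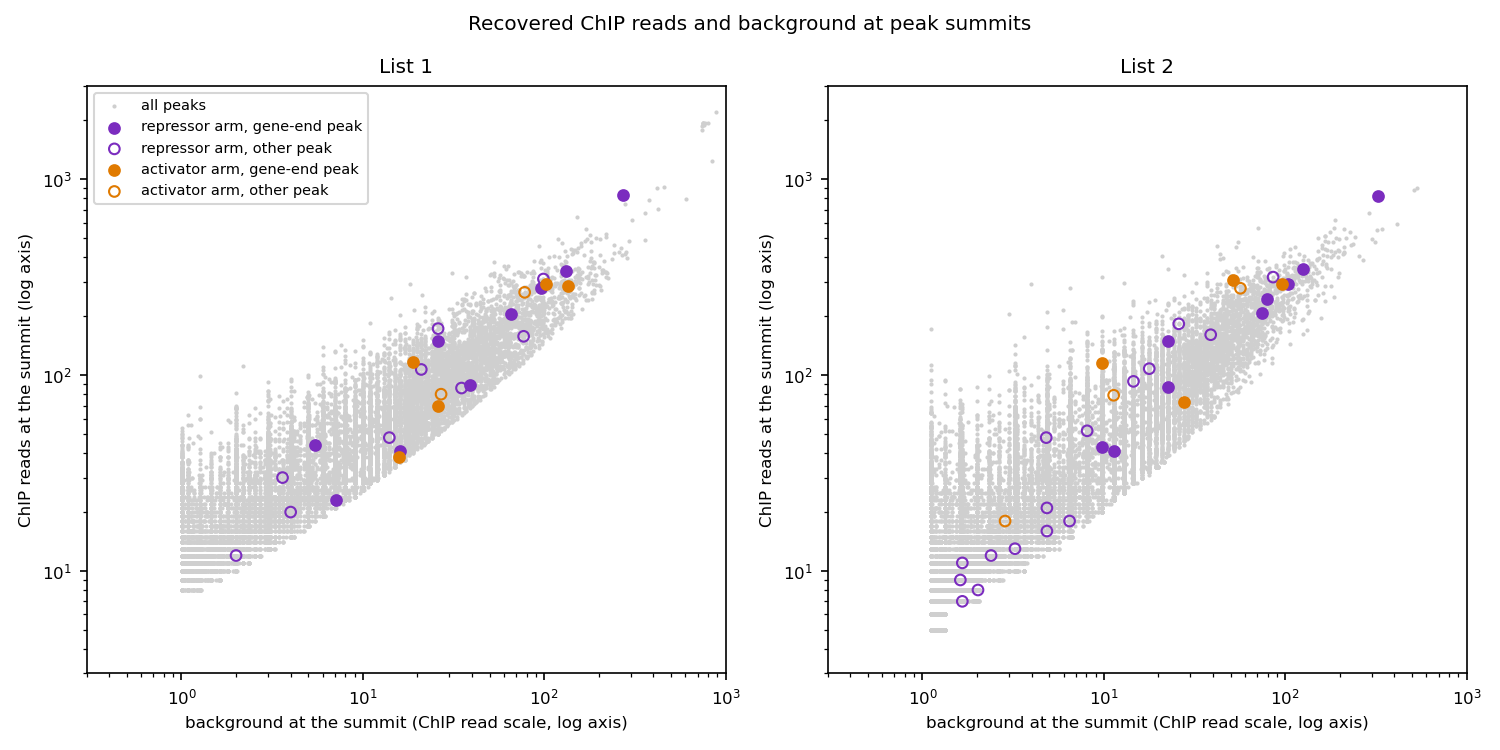
ChIP reads at the peak summit (y, log axis) against the background there on the ChIP read scale (x, log axis) for all peaks of each list (grey) and for peaks of the clock genes by arm, filled for gene-end peaks. The Nr1d2 start peak is the clock gene point farthest to the upper right in both panels, and most gene-end peaks lie right of the middle of the grey cloud.

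Peaks of the clock genes combined many reads with a high background. Over the 25 list 1 peaks the median was 107 reads, against 26 in all peaks, and 22 of the 25 had a background above the list median of 3.998. In list 2 the median was 83 reads, against 15, and 29 of 32 had a background above the list median. Even beside all 8387 gene-end peaks of list 1, whose medians were 48 reads and a background of 10.995, 10 of the 14 gene-end peaks of the clock genes had more reads and 12 a higher background. In list 2 all 13 had both more reads and a higher background than the medians of 10310 gene-end peaks, 40 reads and 6 on that list's own scale. The fold was below the gene-end median of 4.001 in 11 of 14 peaks in list 1 and below 3.53 in 8 of 13 in list 2. The p was among the highest 10% of its list in 11 of 25 and 17 of 32 peaks. The part of the background in these results was not tested.

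Where summits lay within 12 bp, the lists differed at these genes in background and hardly in reads. Of 24 overlapping pairs of peaks, 11 had the same summit base and 22 had summits within 12 bp. The other 2 pairs differed more in reads. The Nr1d1 flanking peaks, with summits 26 bp apart, had 30 and 48 reads. The 406 bp Tef peak of list 1 had 38, against 305 in the joined list 2 peak. The Per3 peak of list 2, with 244 reads, had no list 1 partner. In the 22 pairs within 12 bp the reads differed by a median of 2.25% and at most 10.5%, whereas the list 2 fold was 0.564 to 2.42 times the list 1 fold. The recovered background of list 1 was 0.560 to 2.40 times that of list 2. Reads and background were both solved from the deposited fold and p, so background and fold are not independent here.

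**Figure D3:**
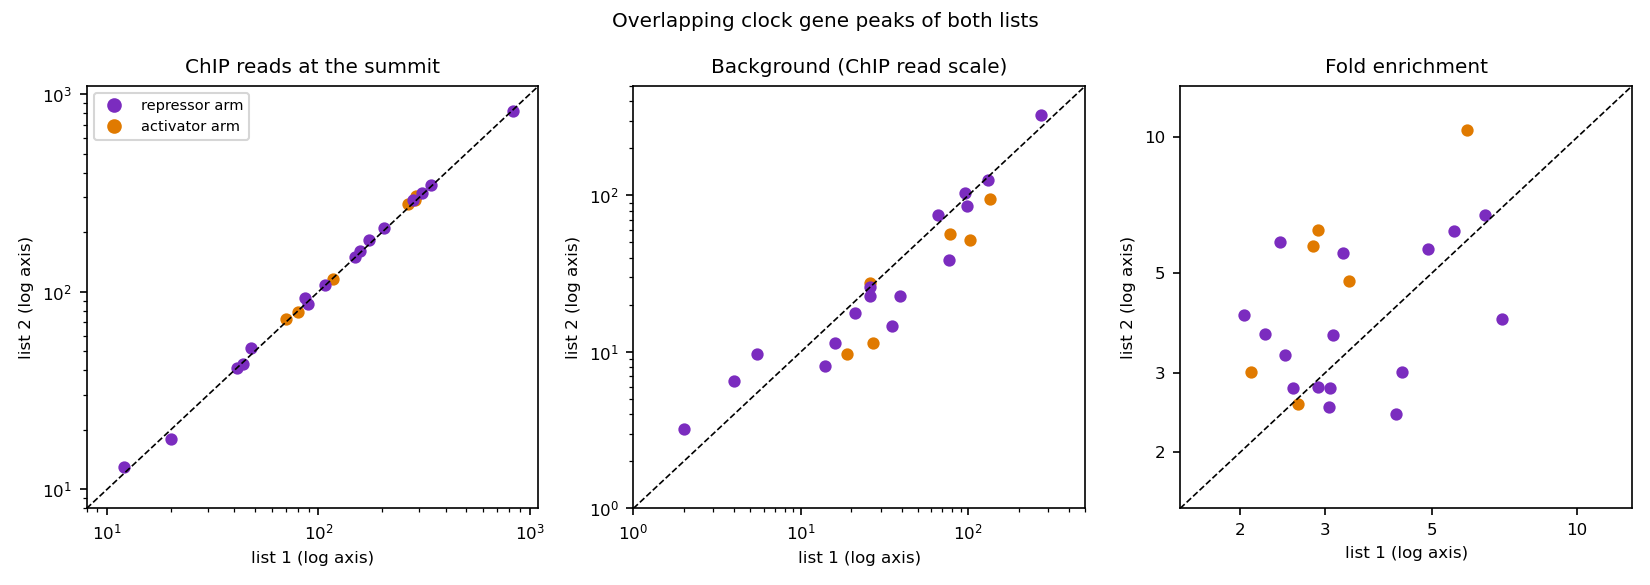
Overlapping clock gene peaks with summits within 12 bp, list 1 on the x axis and list 2 on the y axis, all axes logarithmic, for ChIP reads, background on the ChIP read scale and fold enrichment; the dashed line marks equal values. The 22 points lie on the line for reads and scatter around it for background and fold.

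The values of the repressor and activator arms overlapped, while several medians differed. A gene-end peak of both lists was found at 6 of 7 repressors and 3 of 3 activators, beside 38.6% of all protein-coding genes and 44.5% in the length range. The arms had a median of 3 shared peaks per gene each, with ranges of 0 to 4 in repressors and 1 to 3 in activators. Gene-end folds in list 1 ran from 2.25 to 6.99 in repressors and from 2.10 to 5.90 in activators, and in list 2 from 2.52 to 6.21 and from 2.56 to 10.4, so the ranges overlapped. Over gene-end peaks, not genes, the median fold was 2.98 in repressors and 2.63 in activators in list 1. In list 2 it was 3.04 and 4.38, so the order of the arms by fold turned between the lists. The median width of these peaks was 739 bp in repressors and 870 bp in activators in list 1, and 747 and 1281.5 bp in list 2. Tef gave 2 gene-end peaks in list 1 and 1 in list 2. The activator peaks include the wide Dbp peak with its summit 2512 bp inside the gene. The highest repressor fold in list 1 was that of the Nr1d1 peak overlapping Thra. Of the shared peaks, 8 of 17 lay at gene ends in repressors and 5 of 7 in activators. The 5 include the wide Dbp peak and both list 1 peaks at the first Tef start, which list 2 joined. The share of all shared peaks that lay at gene ends is not given. The covered share of the span ran from 0.0 to 61.9% in repressors and from 1.09 to 48.8% in activators in list 1. Its median was 2.18% in repressors and 9.48% in activators in list 1, and 6.20% and 12.3% in list 2. Over all protein-coding genes with a gene-end peak of both lists the medians were 1.89% in list 1 and 2.99% in list 2. The activator medians are the values of Tef. Genes are not replicates, so no test between arms was made, and 3 against 7 genes could hide a difference.

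Other genes of the loop, listed with earlier results of these data known, were added to both arms. All 4 further repressors, Nfil3, Bhlhe40, Bhlhe41 and Ciart, had a gene-end peak of both lists, which brought that arm to 10 of 11. Of 5 further activators, Npas2, a stand-in for Clock, and Hlf, another relative of Dbp, had one, which brought that arm to 5 of 8. The share over all protein-coding genes was 38.6%, and the added genes reach beyond the length range used above. Arntl, the partner gene of Clock, had no list 1 peak at all and 3 list 2 peaks inside the gene with folds up to 4.26. Rorb, a receptor gene of the retina and brain, had 1 peak, in list 2 alone. Rora, which competes with Rev-erb proteins for their sites, had a gene-end peak in list 1 alone and 11 shared intragenic peaks along a span of 734843 bp. Over all its peaks, shared or not, folds reached 12.3 in list 1 and 14.2 in list 2. Npas2 had 8 shared peaks, 6 of them intragenic. Nfil3, a repressor at D-boxes, was covered over 31.0% and 37.6% of its span.

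**Figure D4:**
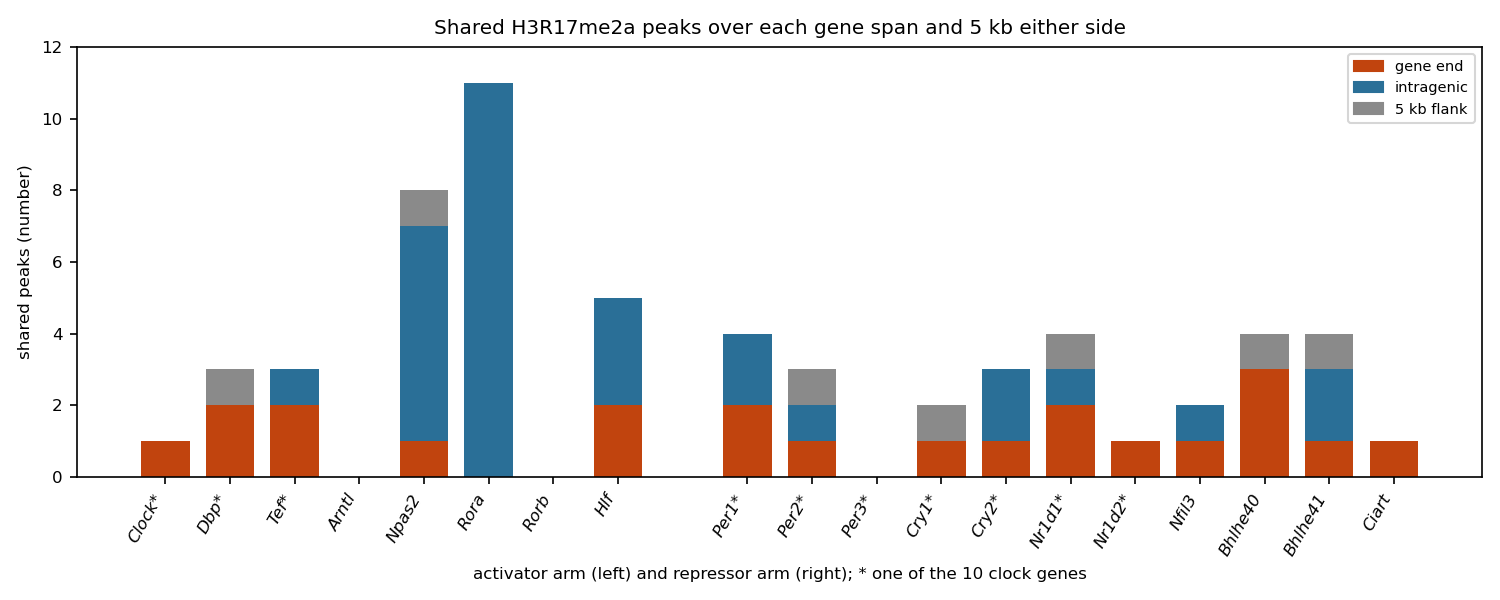
Number of shared H3R17me2a peaks (y) over each gene span and 5 kb either side for the activator arm (left) and the repressor arm (right), stacked by position; asterisks mark the 10 clock genes. Per3, Arntl and Rorb have none, and Rora has 11, all intragenic.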

How the data were processed

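ChIP-seq for H3R17me2a was analysed in 2 heart samples (1 group). FastQC, Bowtie2 and mm10 are named in the submitters' processing notes, with no versions. Peak caller, control and filters: not given in the sources used here. For each sample there is 1 deposited list in the 10-column narrow peak layout, without a header. Fold enrichment is deposited as a linear ratio for the summit, the deposited p and q are on a −log10 scale, and the deposited score was not used further. All are the authors' values and describe peaks within a list only. Whether each list was called on 1 sample or on pooled reads is not given.

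ChIP reads were recovered as the whole number of reads, times a factor, for which (reads + 1) / (background + 1) gives the fold and the upper Poisson tail gives p within 0.001. This matched 99.98% of list 1 with a factor of 1.0 and 99.89% of list 2 with 0.61832, found by scanning list 2 alone. For the clock genes, 25 of 25 and 31 of 32 peaks matched (the exception was the Nr1d2 start in list 2). Dividing the list 2 background by the factor puts it on the ChIP read scale. The step was tested on simulated data whose backgrounds did not reach those of the peaks with most reads, such as the Nr1d2 start.

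Gene spans came from RefSeq for GRCm38.p6 and starts from its promoter table. Exon and UTR positions were not analysed. Coordinates are 1-based. The 10 genes are all described. The pathway genes (9 of both arms, 6 kinases and ligases, 8 outputs) and the markers were listed with earlier results of these data known, and some other listed genes are not reported here. Alternatives were another threshold, list length, overlap, flank (2000 or 10000 bp), end window (3000 bp) or a single list. The length-matched background was chosen after seeing the data. Python 3.11.15, SciPy 1.17.1 and pandas 2.3.3 were used.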

Additional observations from a re-analysis of the deposited data

How the results depend on the processing

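The count of members whose gene end was marked in both lists, 9 of 10, stayed between 8 and 10 under a common −log10 p of 5, list 2 trimmed to the length of list 1, a reciprocal overlap of 50%, a 3000 bp end window and either list alone (9 without sample 2, 10 without sample 1). The share of all protein-coding genes with a gene-end peak, 38.6% as reported, moved too. It was 32.9% at the common p, 35.3% with the shortened list 2 and 34.3% under the reciprocal overlap. The wider end window gave 42.8%, list 1 alone 39.2% and list 2 alone 46.2%. The setting that moved the counts of members was the upper 50% of peaks by fold. It left 2 members with a gene-end peak, 1 repressor and 1 activator, beside 2672 of all protein-coding genes (12.2%) in place of 8454. It also left 3 members with a shared peak, 1 with a shared intragenic peak, and 5 shared peaks in place of 24. The shares of all genes with a shared or intragenic peak at this setting are not given. Of 150 values of single genes under the alternatives, 127 stayed within 1.5 times the reported value and 23 did not, 15 of these in the upper 50% by fold. Per3 had a gene-end peak with list 2 alone, and Tef had none in both lists under the reciprocal overlap. No paired analysis was possible because both samples form 1 group. Fold, p and reads are limited by the unknown total depth, and with the samples counted as 1 the spread between animals is unknown.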

Other observations

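Some genes that modify clock proteins were marked, from a list made with earlier results of these data known. A gene-end peak of both lists was found at 4 of 6 kinases and ubiquitin ligases, beside 38.6% of all protein-coding genes. A shared peak was found at 5 of 6, beside 48.7%, and at least 3 at 1 of 6, beside 8.81%. Csnk1d, a kinase that phosphorylates Per proteins, had folds of 3.73 and 4.43. Csnk1e had no gene-end peak but a peak of both lists within 1000 bp of an annotated start that lies inside its span. Fbxl21 had a peak in list 2 alone.

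Genes known as clock outputs, also listed with earlier results of these data known, were marked at 1 to 16 shared peaks each. A gene-end peak of both lists was found at 7 of 8 outputs, beside 38.6% of all protein-coding genes, and a shared peak at all 8, beside 48.7%. At least 3 shared peaks were found at 5 of 8, beside 8.81%. For Wee1 these were 3 list 1 peaks that overlapped 1 list 2 peak. Dgat2, an enzyme of triglyceride synthesis, had 16 shared peaks over its span and flanks, Usp2, a deubiquitinase, 13 and Pdk4, a kinase that restrains glucose oxidation, 11. Peaks covered 30.5% and 45.5% of the Dgat2 span and 35.8% and 41.7% of the Pdk4 span. Klf15, a metabolic regulator in the heart, was the gene without an end peak, and it had a peak of both lists at an annotated start inside its span.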
